A study of Homo sapiens with 12 samples.

Results

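Interferon-stimulated genes (ISGs) are the transcripts that cells switch on when they sense interferon, and many of their products block viruses. The 37 genes described here are ISGs listed by symbol, and all 37 were found among the 23368 gene symbols counted in the study (the RNA helicase RIG-I appears under its older symbol, DDX58). They were taken by name, with no threshold on their response, though with earlier results of these data known. Of the 37, 20 reached a mean of 1 CPM (the usual read count scaled to library size, here with edgeR's TMM factors) over the 12 libraries, against 11507 of the 23368 symbols. The cells were SUDHL6, an established human lymphoma line (diffuse large B-cell, germinal centre type), and poly(A)-selected RNA was sequenced from 4 groups of 3 libraries. These were cells given 200 nM GSK591, a compound that inhibits the protein arginine methyltransferase PRMT5, for 24 h; cells given vehicle, 0.01% DMSO, for 24 h; and the same pair of treatments for 96 h. The labels name no separate cultures, so the p-values measure the spread between these libraries, which may be technical, and the study is of 1 cell line. In bulk RNA, fewer cells with a transcript and less of it per cell cannot be told apart.

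As background, type I and type III interferons bind receptors on the cell surface and activate the kinases JAK1 and TYK2, which phosphorylate STAT2 among other proteins. STAT2 and IRF9 take part in ISGF3, a factor that binds the interferon-stimulated response element, while interferon-gamma acts through gamma-activated sites. STAT2, IRF9, IRF7 and many sensors are themselves ISGs, and cells can hold some of these transcripts before any interferon arrives. PRMT5 places symmetric dimethyl marks on arginines of histones, splicing proteins and other targets.

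The core of the response element, GAAANNGAA on either strand, lay in 8.11% of the 35116 RefSeq promoter windows of 300 bases (GRCh38.p14, 250 bases before a gene's start and 50 after), and the gamma-activated site TTCNNNGAA in 7.66%, and matches of both kinds may overlap. Of the 37 ISGs, 30 matched 39 windows, 8 of them having more than 1, and 27 of the 39 windows (69.2%) held the element's core while 11 (28.2%) held the gamma-activated site. Among ISGs at 1 CPM or more, 11 of 19 windows held the core, and among those below 1 CPM, 16 of 20. The core is written in capitals below for the 3 ISGs with the smallest p-value at 96 h whose window held it, with runs joined where 2 matches overlap. They are shown because MX1 and BST2 fell at 96 h and IFITM1 rose. Holding the core was a condition of their choice, so its presence in each window is not a result. The windows are chr21:41420308-41420607 on the plus strand for MX1 (the first of its 3 windows), chr19:17405581-17405880 on the minus strand for BST2 and chr11:313790-314089 on the plus strand for IFITM1. The first match began at position 11 relative to the start in MX1, at -130 in BST2 and at -40 in IFITM1.
MX1: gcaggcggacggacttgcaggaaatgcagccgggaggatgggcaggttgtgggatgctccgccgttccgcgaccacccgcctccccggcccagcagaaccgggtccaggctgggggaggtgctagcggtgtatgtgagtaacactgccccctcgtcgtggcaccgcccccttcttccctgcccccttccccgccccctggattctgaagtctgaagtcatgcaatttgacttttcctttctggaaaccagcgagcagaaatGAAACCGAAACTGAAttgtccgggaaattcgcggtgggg
BST2: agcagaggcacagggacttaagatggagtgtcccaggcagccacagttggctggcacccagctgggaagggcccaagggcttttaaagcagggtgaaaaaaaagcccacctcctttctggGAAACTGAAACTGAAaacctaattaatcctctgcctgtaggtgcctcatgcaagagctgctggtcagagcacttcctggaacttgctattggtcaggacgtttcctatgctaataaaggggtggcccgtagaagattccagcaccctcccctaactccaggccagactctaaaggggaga
IFITM1: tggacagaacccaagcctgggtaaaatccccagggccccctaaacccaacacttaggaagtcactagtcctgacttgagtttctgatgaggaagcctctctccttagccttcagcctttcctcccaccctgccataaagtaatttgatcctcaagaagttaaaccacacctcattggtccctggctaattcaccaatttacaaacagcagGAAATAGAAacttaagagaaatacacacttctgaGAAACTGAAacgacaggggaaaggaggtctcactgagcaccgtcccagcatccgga

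Library totals were 48.5 to 64.4 M counts (M, mega) for 11 libraries and 547.9 M for vehicle replicate 1 at 96 h. No replicate pair agreed within sampling noise, with chi-square values per degree of freedom between 2.2 and 39.8. The highest of these were at 96 h, where every pair that included a library numbered 2 gave 16.6 or more, so that library of each group stood apart from its replicates. The biological coefficient of variation fitted over all genes was 2.35% at 24 h and 8.19% at 96 h, so a change of a given size was easier to detect at 24 h. All 7 B-cell markers, among them CD79A and PAX5, were above 1 CPM, and their sum lay between 6630 and 8080 CPM in every library. None of 20 markers of T cells, myeloid cells, plasmacytoid dendritic cells, fibroblasts or epithelium reached 1 CPM, and CD3D, CD2, CLEC4C, NRP1, DCN and KRT19 had no count in any library. The summed myeloid markers were 0.841 to 1.49 CPM with GSK591 at 96 h against 0.213 to 0.56 CPM with vehicle at 96 h, and the summed fibroblast markers 0.428 to 1.25 CPM against 0.174 to 0.506 CPM. These sums are trace transcripts in an established line, and their relation to the ISG changes at 96 h was not tested.

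The ISG levels in SUDHL6 spanned a wide range. Per kilobase of the longest coding transcript (GENCODE v29), IFI16, a nuclear DNA sensor, and STAT2 stood highest, at 92.6 and 83.8 CPM per kb over the 12 libraries. Next came IFITM2 at 31.2, OAS1 at 29.3, BST2 at 25.0 and MX2 at 20.4 CPM per kb. MX1, ISG15 and IFIT2, which are commonly used as markers of an interferon response, lay lower, at 1.80, 6.53 and 0.520 CPM per kb. RSAD2, which encodes viperin, was the last ISG above the expression limit, with 1.65 CPM, and IFITM3 was the first below it, with 0.835 CPM. The other 16 below the limit were IFIT5, OASL, EPSTI1, XAF1, IFIH1, PARP9, SAMD9L, IFI27, IFI44, IFI44L, DDX60, IFI6, IFIT3, IFIT1, USP18 and HERC5, with means between 0.00666 and 0.411 CPM. Asking for 1 CPM in every group mean removed IFIT2 alone from the expressed set, and asking for it in any group mean added IFITM3 alone.

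The interferons themselves were barely counted. Of 10 ligand genes, IFNA1, IFNA2, IFNE and the lambda interferons listed as IL28A and IL28B had no count in any of the 12 libraries. IFNB1 reached 2 counts at most, and IFNG, the most abundant, 36 counts in the deep library (vehicle replicate 1 at 96 h) and 0.146 CPM at most in any library. None was high enough to be tested.

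After 24 h the ISGs differed little from vehicle. Of 26 that passed the filter on low counts, 4 were called, meaning a Benjamini-Hochberg adjusted p under 0.05 in edgeR's quasi-likelihood test over all genes, while 14.7% of all genes tested were called (7.44% higher and 7.29% lower). IRF9 and OAS1 were higher and MX2 and OAS2 were lower. The groups did not overlap for 3 ISGs that were higher and 3 that were lower, against 31.9% of all genes tested (15.7% higher and 16.2% lower). The median log2 fold change was 0.03 for the 26 ISGs and -0.001 for all genes tested, and 0.01 for the 20 expressed ISGs and 0.003 for all genes at 1 CPM or more. The 16 expressed ISGs that were not called ran between -0.33 for IFI35 and 0.42 for MX1.

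MX2, a dynamin-like GTPase that restricts HIV-1, had 65.1, 62.7 and 66.7 CPM with GSK591 and 70.8, 73.3 and 71.4 CPM with vehicle at 24 h. Every treated library was below every vehicle library, and the log2 fold change was -0.15 ± 0.03 (SE, n = 3 each; edgeR adjusted p = 0.00282). OAS2, an enzyme that makes the 2′,5′-linked oligoadenylates which activate RNase L, had 81.7, 78.5 and 75.9 CPM with GSK591 and 91.8, 86.2 and 84.8 CPM with vehicle. Again the groups did not overlap, and the log2 fold change was -0.15 ± 0.03 (edgeR adjusted p = 0.00392). Both calls were kept whichever library was left out and were lost in a fit of all 12 libraries, with edgeR adjusted p of 0.18 for MX2 and 0.251 for OAS2.

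IRF9, the DNA-binding subunit of ISGF3, had 30.7, 29.1 and 29.5 CPM with GSK591 and 26.8, 28.5 and 26.9 CPM with vehicle at 24 h, a log2 fold change of 0.12 ± 0.04 (edgeR adjusted p = 0.0447). OAS1 had 80.6, 76.2 and 79.0 CPM with GSK591 and 74.2, 71.3 and 75.3 CPM with vehicle, a log2 fold change of 0.09 ± 0.03 (edgeR adjusted p = 0.0443). The treated libraries were all above the vehicle libraries for both genes, yet both calls lay close to the threshold. Without GSK591 replicate 1 the edgeR adjusted p was 0.197 for IRF9 and 0.204 for OAS1, and without GSK591 replicate 3 it was 0.0932 and 0.128. Without vehicle replicate 1 it was 0.136 for IRF9 and 0.0753 for OAS1. IRF9 was also lost without vehicle replicate 3 (0.12), and OAS1 without vehicle replicate 2 (0.207). With library size alone the edgeR adjusted p was 0.0893 for IRF9 and 0.119 for OAS1, and with a filter of 5 CPM it was 0.0532 and 0.0567. In the fit of all 12 libraries it was 0.423 for IRF9 and 0.763 for OAS1. By DESeq2 the adjusted p was 0.091 for IRF9 and 0.06 for OAS1. At 24 h the authors' deposited table lists MX2 (FDR 2.19e-05), OAS2 (FDR 0.000212) and IFI35 (FDR 0.0317) as lower and no ISG as higher at an FDR under 0.05, where 7.75% of all symbols passed.

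A single treated library carried much of the remaining ISG signal at 24 h. GSK591 replicate 1 was the highest of the 6 libraries for 20 of the 37 ISGs, against 17.0% of all genes tested. It was the highest for 9 of the 20 expressed ISGs and for 11 of the 17 below 1 CPM. The 37 include ISGs that did not pass the filter on low counts, so the nearer comparison is that of the expressed ISGs. MX1, a dynamin-like GTPase that blocks influenza virus, had 14.3, 5.33 and 4.87 CPM with GSK591 and 5.65, 6.46 and 6.14 CPM with vehicle. Replicate 1 held 743 reads of MX1, and the other 5 libraries held 246 to 336. ISG15, a ubiquitin-like protein attached to other proteins after interferon, had 6.97, 3.87 and 3.37 CPM with GSK591 and 4.47, 4.72 and 4.31 CPM with vehicle. For both genes the other treated libraries were below every vehicle library.

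When all 23368 symbols were ranked by the ratio of that library to the highest of the other 5, with 0.2 CPM added to both, MX1 ranked 1, XAF1 ranked 2 and SAMD9L ranked 3. PARP9, ISG15, IFI44, EPSTI1 and IFI6 were also among the first 30, so 8 of the 30 were ISGs of the list, and 1 more, PRIC285 (HELZ2), belonged to another ISG list. Most of these ISGs had few reads: XAF1, a binding partner of the apoptosis inhibitor XIAP, had 45 against 7 to 18 in the others, and SAMD9L had 24 against 6 to 10. Over the 3 treated libraries the log2 fold change of MX1 was 0.42 ± 0.25 (edgeR adjusted p = 0.289), and it was -0.25 without replicate 1. That of ISG15 was 0.07 ± 0.17 (edgeR adjusted p = 0.818), and -0.31 without replicate 1. Leaving this library out moved the median of the expressed ISGs to -0.08, left 2 ISGs called, MX2 and OAS2, and left 980 genes called in all, against 1940 with it.

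**Figure D1:**
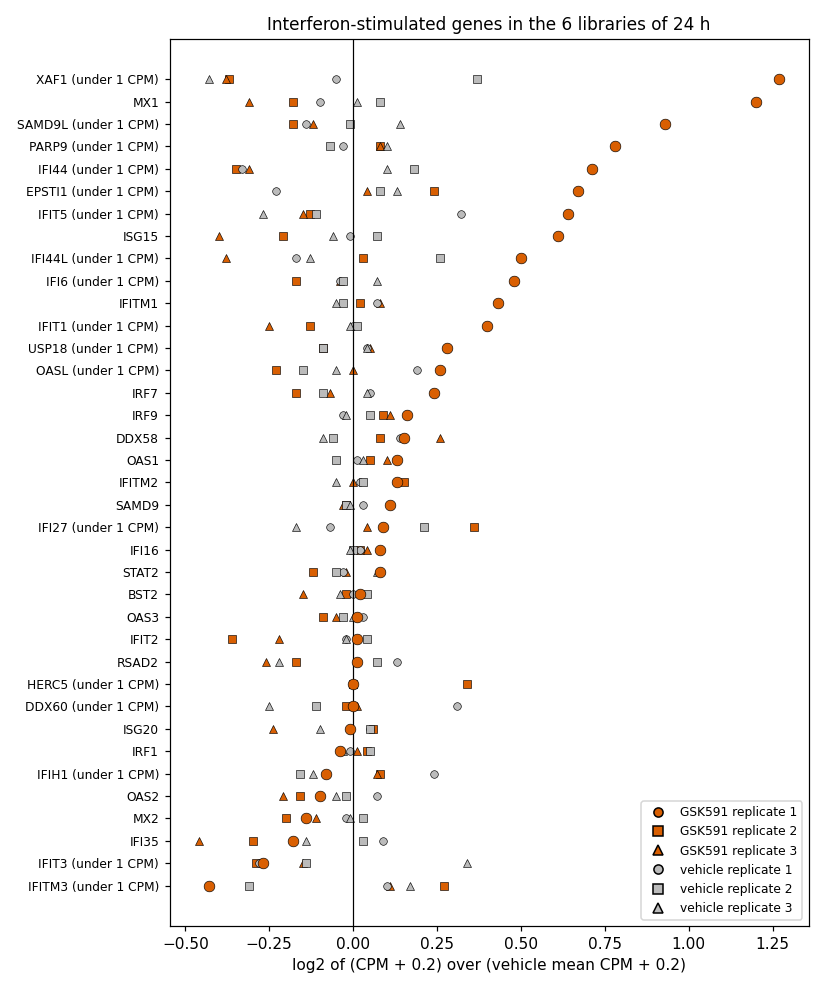
Each of the 37 ISGs in the 6 libraries of 24 h, as the log2 ratio of its CPM to the vehicle mean, with 0.2 CPM added to both (x axis); orange is GSK591, grey is vehicle and the symbol gives the replicate. GSK591 replicate 1 (large circles) lies to the right for XAF1 and MX1, at 1.27 and 1.20, and lowest, at -0.43, for IFITM3.

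After 96 h more ISGs had changed, in both directions. Of 29 tested, 4 were called higher and 10 lower, while 40.2% of all genes tested were called (20.7% higher and 19.6% lower). Among the 20 expressed ISGs, 4 were higher (STAT2, IFITM1, IFITM2 and ISG20), 6 were lower (IFI35, MX1, BST2, MX2, OAS2 and IFI16) and 10 were not called; of all genes at 1 CPM or more, 42.5% were called (20.7% higher and 21.8% lower). The median log2 fold change was 0.00 for the 20 expressed ISGs and -0.013 for all genes at 1 CPM or more. For all 29 ISGs tested, 9 of them below 1 CPM, it was -0.22, and for all genes tested 0.000. Of those 9, the 4 called lower passed the filter on low counts through the vehicle libraries. The ISG median of -0.22 therefore depends partly on that filter. The groups did not overlap for 6 ISGs that were higher and 11 that were lower, against 54.6% of all genes tested (25.0% higher and 29.7% lower). Without both libraries numbered 2, 19 ISGs and 8201 genes were called, and without GSK591 replicate 2 alone, 18 ISGs and 7485 genes.

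**Figure D2:**
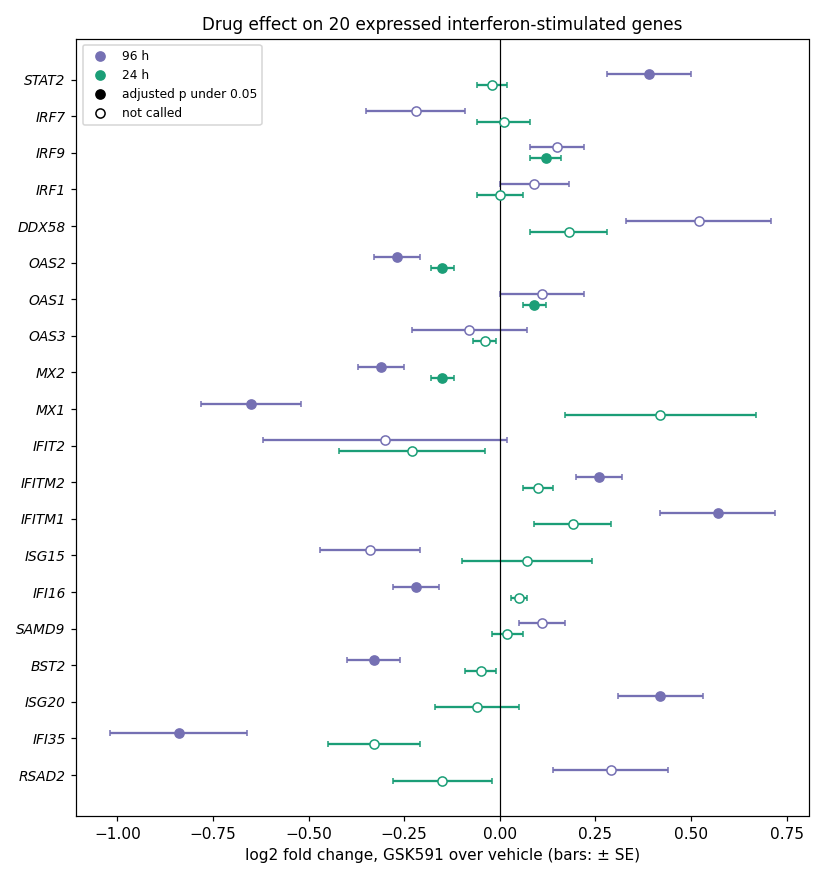
Log2 fold change of GSK591 over vehicle (x axis, bars ± SE) of the 20 expressed ISGs at 96 h and 24 h, grouped by role from transcription factors at the top to other effectors at the bottom; filled points have an edgeR adjusted p under 0.05. The 96 h values run from -0.84 for IFI35 to 0.57 for IFITM1, and 4 of the 24 h values are filled.

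Among the transcription factors, STAT2 rose at 96 h. It had 424, 358 and 372 CPM with GSK591 and 326, 249 and 316 CPM with vehicle, so every treated library was above every vehicle library. The log2 fold change was 0.39 ± 0.11 (edgeR adjusted p = 0.02), and the call was lost without GSK591 replicate 1 (0.075). IRF9 had 36.2, 35.8 and 37 CPM with GSK591 and 34.3, 30.1 and 34.4 CPM with vehicle, without overlap, and was not called (log2 fold change 0.15 ± 0.07, edgeR adjusted p = 0.0993); it passed in the fit of all 12 libraries (0.0437). IRF7, which drives the transcription of type I interferon genes, had 36.4, 30.9 and 36.8 CPM with GSK591 and 44.2, 32.4 and 45.6 CPM with vehicle. In both groups the library numbered 2 was the lowest, and the log2 fold change of -0.22 ± 0.13 was not called (edgeR adjusted p = 0.18). It was called without both libraries numbered 2 (6.73e-05), without vehicle replicate 2 (0.0214) and with the replicate number as a block (0.0319). IRF1, a factor induced by interferon-gamma, averaged 8.43 ± 0.642 CPM with GSK591 and 8 ± 0.158 CPM with vehicle and was not called (edgeR adjusted p = 0.446).

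Of the RNA helicase sensors, DDX58 (RIG-I) alone was above 1 CPM. It had 6.38, 3.88 and 5.42 CPM with GSK591 and 4.08, 2.96 and 3.80 CPM with vehicle at 96 h. Replicate 2 was the lowest of each group, and the groups overlapped. The log2 fold change was 0.52 ± 0.19, just outside the threshold (edgeR adjusted p = 0.0544). Its adjusted p was 0.00414 without GSK591 replicate 2, 0.000312 without both libraries numbered 2, 0.00374 with the replicate number as a block, and 0.0205 by DESeq2. The authors' deposited table lists 0.53 with an FDR of 0.022 for this gene. IFIH1, which encodes the related sensor MDA5, averaged 0.145 ± 0.0238 CPM with GSK591 and 0.168 ± 0.027 CPM with vehicle, and DDX60 0.218 ± 0.0535 and 0.176 ± 0.0855 CPM.

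Of the 4 OAS genes tested at 96 h, OAS2 was called. OAS2 had 73.3, 65.2 and 73.1 CPM with GSK591 and 87.4, 86.1 and 83.8 CPM with vehicle at 96 h. It fell without overlap between the groups, with a log2 fold change of -0.27 ± 0.06 (edgeR adjusted p = 0.00641), and was called whichever library was left out. OAS1 had 75.8, 54.5 and 73.1 CPM with GSK591 and 65.8, 57.6 and 65.8 CPM with vehicle, and was not called (log2 fold change 0.11 ± 0.11, edgeR adjusted p = 0.44). Here replicate 2 was again lowest in each group, and without GSK591 replicate 2 the adjusted p was 0.0126. OAS3 averaged 31.7 ± 6.79 CPM with GSK591 and 33.7 ± 3.88 CPM with vehicle, and its log2 fold change of -0.08 ± 0.15 was not called (edgeR adjusted p = 0.672).

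Both MX GTPases fell at 96 h. MX1 had 4.12, 4.12 and 4.35 CPM with GSK591 and 7.70, 5.71 and 6.31 CPM with vehicle. The treated libraries lay close together and under every vehicle library, with a log2 fold change of -0.65 ± 0.13 (edgeR adjusted p = 0.00534). The call was kept whichever library was left out and was lost in the fit of all 12 libraries (0.0721). MX2 had 47.2, 51.6 and 50 CPM with GSK591 and 61.4, 63.5 and 61.6 CPM with vehicle, without overlap, and its log2 fold change of -0.31 ± 0.06 was called in every alternative run (edgeR adjusted p = 0.00354; 0.017 at most).

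Of the IFITM genes, whose products stop enveloped viruses from fusing with cell membranes, 2 of 3 were higher at 96 h. IFITM1 had 11.5, 8.86 and 12.4 CPM with GSK591 and 8.35, 6.02 and 7.57 CPM with vehicle. Every treated library was above every vehicle library, with a log2 fold change of 0.57 ± 0.15 (edgeR adjusted p = 0.0168). Leaving out GSK591 replicate 1 (0.0565), GSK591 replicate 3 (0.0681) or vehicle replicate 2 (0.0581) ended that call. IFITM2 had 34.1, 32.1 and 34.6 CPM with GSK591 and 27.7, 29.9 and 27.6 CPM with vehicle, a log2 fold change of 0.26 ± 0.06 (edgeR adjusted p = 0.0104). The groups did not overlap. Leaving out vehicle replicate 1 (0.0593) or vehicle replicate 3 (0.0534) ended the call. IFITM3 averaged 1.21 ± 0.132 CPM with GSK591 and 1.16 ± 0.0188 CPM with vehicle and was not called (edgeR adjusted p = 0.715). The 3 genes are related in sequence, and how reads that fit several of them were counted is not stated, so the split between them is uncertain.

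ISG15 had 4.36, 5.27 and 5.31 CPM with GSK591 and 6.79, 5.51 and 6.73 CPM with vehicle at 96 h. The groups did not overlap, and the log2 fold change of -0.34 ± 0.13 stayed just outside the threshold (edgeR adjusted p = 0.0577). Without GSK591 replicate 2 it was 0.0252, without vehicle replicate 2 it was 0.0398, without both it was 0.000697, and by DESeq2 it was 0.0333. USP18, which removes ISG15 from proteins, and HERC5, which attaches it, had at most 0.0964 and 0.0535 CPM in any library and were not tested. IFIT2, an RNA-binding protein of the tetratricopeptide family, had 3.74, 1.67 and 3.01 CPM with GSK591 and 4.12, 2.05 and 4 CPM with vehicle. The libraries numbered 2 were the lowest in both groups, and IFIT2 was not called (log2 fold change -0.30 ± 0.32, edgeR adjusted p = 0.462), while without both of them its adjusted p was 0.0472.

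IFI35, a leucine-zipper protein that binds NMI, fell most among the expressed ISGs at 96 h. It had 0.964, 1.58 and 1.36 CPM with GSK591 and 2.28, 2.57 and 2.28 CPM with vehicle, and every treated library lay below the vehicle range. The log2 fold change was -0.84 ± 0.18 (edgeR adjusted p = 0.00817) and was called in every alternative run (0.0341 at most). At 24 h IFI35 was already below the vehicle range in each treated library, with 2.32, 2.12 and 1.88 CPM against 2.85, 2.73 and 2.39 CPM, and was not called (log2 fold change -0.33 ± 0.12, edgeR adjusted p = 0.0652). Without vehicle replicate 3 that 24 h value passed (0.0434).

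BST2, or tetherin, which holds budding virus on the cell surface, had 21.0, 22.2 and 23.6 CPM with GSK591 and 28.4, 26.9 and 29.5 CPM with vehicle at 96 h. It fell without overlap by a log2 fold change of -0.33 ± 0.07 (edgeR adjusted p = 0.00681) and was called in every alternative run (0.0297 at most). IFI16 had 213, 204 and 212 CPM with GSK591 and 236, 268 and 235 CPM with vehicle, a log2 fold change of -0.22 ± 0.06 (edgeR adjusted p = 0.0223). It too fell without overlap, but was not called once vehicle replicate 2 (0.0526) or GSK591 replicate 3 (0.0643) was left out.

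ISG20, an exonuclease that degrades RNA, had 3.16, 3.44 and 3.57 CPM with GSK591 and 2.60, 2.53 and 2.50 CPM with vehicle at 96 h. All treated libraries were above all vehicle libraries, with a log2 fold change of 0.42 ± 0.11 (edgeR adjusted p = 0.0171). Without 1 of vehicle replicate 1 (0.0659), vehicle replicate 3 (0.0676) and GSK591 replicate 3 (0.0616) it was not called. SAMD9, which restricts poxviruses, averaged 74.8 ± 1.84 CPM with GSK591 and 69.9 ± 4.59 CPM with vehicle, and was not called (edgeR adjusted p = 0.16). RSAD2 had 1.62, 1.58 and 1.34 CPM with GSK591 and 1.25, 1.32 and 1.20 CPM with vehicle; the groups did not overlap, but the log2 fold change of 0.29 ± 0.15 was not called (edgeR adjusted p = 0.145).

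**Figure D3:**
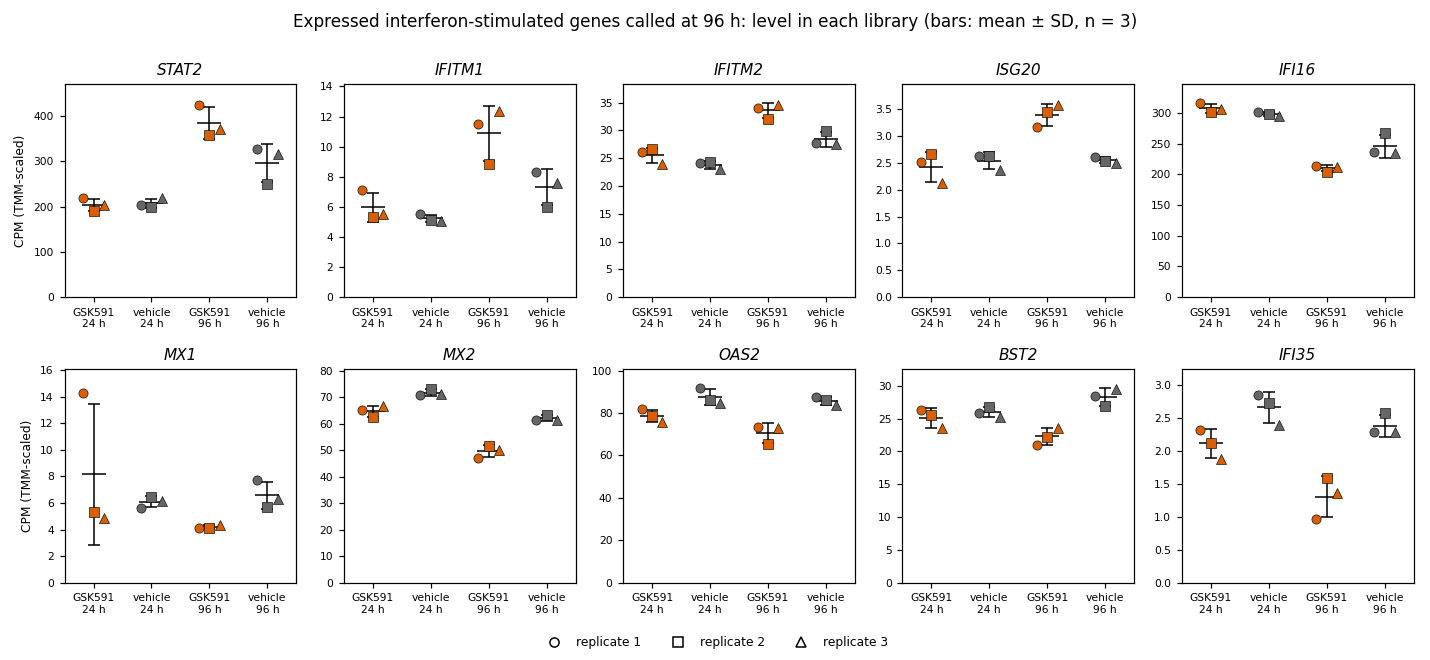
TMM-scaled CPM of the 10 expressed ISGs called at 96 h, in each library of the 4 groups (orange GSK591, grey vehicle; bars mean ± SD, n = 3). STAT2, IFITM1, IFITM2 and ISG20 are higher with GSK591 at 96 h and the other 6 lower, and MX1 shows GSK591 replicate 1 at 24 h at 14.3 CPM, above the other 11 libraries.

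Below 1 CPM, 4 more ISGs were called lower at 96 h, and they are named here after their values were seen. The filter on low counts asks for enough reads in 3 libraries. For these 4 ISGs the 3 vehicle libraries met it, and the 3 GSK591 libraries together did not. They entered the test through the group where they were higher, so their direction is not independent of the filter. EPSTI1 had 1, 9 and 6 reads with GSK591 and 149, 20 and 12 with vehicle, where the first vehicle library is the deep one. As CPM these were 0.0193, 0.133 and 0.109 with GSK591 and 0.264, 0.387 and 0.240 with vehicle, a log2 fold change of -1.62 ± 0.45 (edgeR adjusted p = 0.02). SAMD9L, the paralog of SAMD9, had 0.0578, 0.207 and 0.0725 CPM with GSK591 and 0.284, 0.290 and 0.360 CPM with vehicle, a log2 fold change of -1.31 ± 0.41 (edgeR adjusted p = 0.0311). In both genes the groups did not overlap, but leaving out vehicle replicate 2, GSK591 replicate 1 or GSK591 replicate 3 ended the call, with edgeR adjusted p of 0.0561, 0.051 and 0.0523 for EPSTI1 and 0.0714, 0.102 and 0.107 for SAMD9L. SAMD9L was also lost without vehicle replicate 1 (0.0696) or vehicle replicate 3 (0.0724).

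IFI44 averaged 0.160 ± 0.0745 CPM with GSK591 and 0.313 ± 0.035 CPM with vehicle at 96 h, a log2 fold change of -0.97 ± 0.33 (edgeR adjusted p = 0.0439). PARP9, a partner of the ubiquitin ligase DTX3L, averaged 0.153 ± 0.0385 CPM with GSK591 and 0.272 ± 0.0182 CPM with vehicle, a log2 fold change of -0.83 ± 0.28 (edgeR adjusted p = 0.0418). Both calls were lost without any 1 library other than GSK591 replicate 2: the adjusted p then ran from 0.0753 to 0.198 for IFI44 and from 0.0698 to 0.183 for PARP9. By DESeq2 it was 0.131 for IFI44 and 0.193 for PARP9.

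XAF1 and IFI44L did not pass the filter on low counts at 96 h. XAF1 had 1, 3 and 4 reads with GSK591 and 172, 13 and 6 with vehicle, or 0.0193 to 0.0725 CPM against 0.120 to 0.305 CPM, and IFI44L had 0, 6 and 0 reads with GSK591 and 103, 2 and 6 with vehicle. The authors' deposited table lists both as lower, at -2.45 with an FDR of 3.44e-05 for XAF1 and -1.96 with an FDR of 0.0177 for IFI44L. By its FDR under 0.05 at 96 h, that deposited table holds 5 ISGs as higher and 11 as lower, where 22.8% of all symbols passed. At counts this low a change is set by a few reads in each library.

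**Figure D4:**
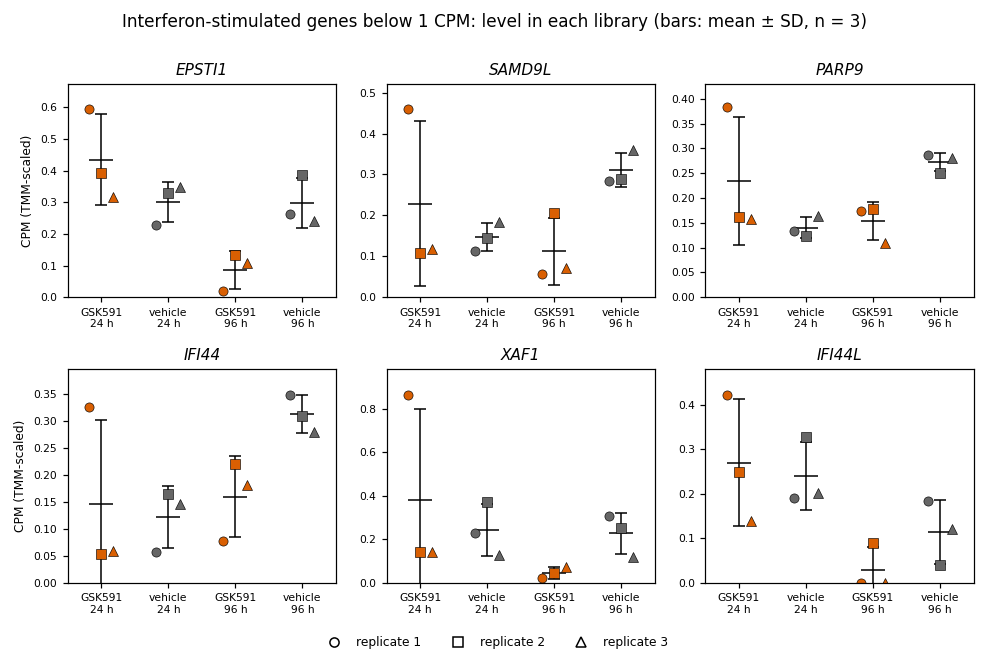
TMM-scaled CPM of 6 ISGs below 1 CPM in each library of the 4 groups (orange GSK591, grey vehicle; bars mean ± SD, n = 3, cut at 0). GSK591 replicate 1 at 24 h is the highest library for EPSTI1, SAMD9L, PARP9, XAF1 and IFI44L, and the 96 h treated libraries lie below the 96 h vehicle libraries for all but IFI44L.

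The drug effect differed between the times for 8 of 32 ISGs tested in a fit of all 12 libraries, while 24.1% of all genes tested did. The difference, taken as the 96 h value less the 24 h value, was positive for ISG20 (0.47) and STAT2 (0.39). It was negative for IFI16, BST2, MX2, EPSTI1, PARP9 and XAF1. IFI16 had a log2 fold change of -0.22 at 96 h and 0.05 at 24 h, a difference of -0.28 ± 0.07 (edgeR adjusted p = 0.0112), which was called in every alternative run (0.0326 at most). EPSTI1 had -1.62 at 96 h and 0.53 at 24 h, a difference of -2.14 ± 0.55 (edgeR adjusted p = 0.0138; 0.0389 at most). The other 6 were lost in some of the fits that left out a library. EPSTI1, PARP9 and XAF1 lie below 1 CPM. With GSK591 at 96 h they had 1, 9 and 6 reads, 9, 12 and 6 reads, and 1, 3 and 4 reads. They passed the filter on low counts mainly through other libraries, so the direction of their difference is not independent of it. MX1, at -0.65 and 0.42, had a difference of -1.10 ± 0.42 that was not called (edgeR adjusted p = 0.074), and it was -0.42 (edgeR adjusted p = 0.0961) without GSK591 replicate 1 of 24 h, the library with 743 reads of MX1. Leaving that library out ended the calls of XAF1 (0.154), PARP9 (0.162), BST2 (0.0607), MX2 (0.0851) and ISG20 (0.0604).

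Around the ISGs, the genes of interferon signalling were counted from whole lists. Of 11 receptors and signal transducers tested, all above 1 CPM, 3 were higher and 1 was lower at 96 h. Of all genes tested, 20.7% were higher and 19.6% lower. The kinase JAK2 had 14, 13.7 and 11.8 CPM with GSK591 and 9.24, 9.48 and 9.07 CPM with vehicle (log2 fold change 0.52 ± 0.09, edgeR adjusted p = 0.00327). JAK1 averaged 116 ± 9.01 CPM with GSK591 and 101 ± 3.02 CPM with vehicle (log2 fold change 0.21 ± 0.06, edgeR adjusted p = 0.0265), and lost its call without any 1 library other than GSK591 replicate 2 (0.0604 to 0.112).

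Of 6 negative regulators tested at 96 h, SOCS1, an inhibitor of JAK kinases, was called: it had 8.89, 5.95 and 8.39 CPM with GSK591 and 4.88, 3.42 and 4.70 CPM with vehicle. It rose with a log2 fold change of 0.83 ± 0.18 (edgeR adjusted p = 0.0074), and the library numbered 2 was the lowest in each group. Among 14 genes of nucleic acid sensing and interferon induction, 5 were higher and 3 lower at 96 h, where 20.7% of all genes tested were higher and 19.6% lower. TLR7, a sensor of single-stranded RNA, averaged 6.33 ± 0.846 CPM with GSK591 and 4.31 ± 0.229 CPM with vehicle (log2 fold change 0.56 ± 0.12, edgeR adjusted p = 0.0072). The DNA sensor AIM2 (0.20 ± 0.05, edgeR adjusted p = 0.016) was higher and the kinase IKBKE (-0.20 ± 0.05, edgeR adjusted p = 0.0189) was lower. AIM2 lost its call without vehicle replicate 2 (0.0556) or 3 (0.0674), and IKBKE without GSK591 replicate 1 (0.0553), GSK591 replicate 3 (0.0702) or vehicle replicate 1 (0.0786).

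Of 3 other IRF factors tested, 2 were called at 96 h. IRF4, a factor of plasma cell and activated B-cell programmes, averaged 42.8 ± 0.954 CPM with GSK591 and 60.1 ± 4.69 CPM with vehicle (log2 fold change -0.47 ± 0.06, edgeR adjusted p = 0.0014). IRF8, a germinal centre factor, averaged 500 ± 16.7 CPM with GSK591 and 438 ± 6.05 CPM with vehicle (0.21 ± 0.05, edgeR adjusted p = 0.0117), which was not called when vehicle replicate 1 was left out (0.0686). Of 34 further ISGs outside the 37, 8 were higher and 3 lower at 96 h, or 11 called in all, while 40.2% of all genes tested were called. The 3 with the smallest p-values are named, and each was higher. TRIM22, an antiviral ubiquitin ligase, had 330, 304 and 318 CPM with GSK591 and 211, 197 and 203 CPM with vehicle, a log2 fold change of 0.65 ± 0.05 (edgeR adjusted p = 0.000308). The nuclear body proteins SP140L (0.44 ± 0.06, edgeR adjusted p = 0.00124) and SP110 (0.41 ± 0.06, edgeR adjusted p = 0.00223) were also higher.

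**Figure D5:**
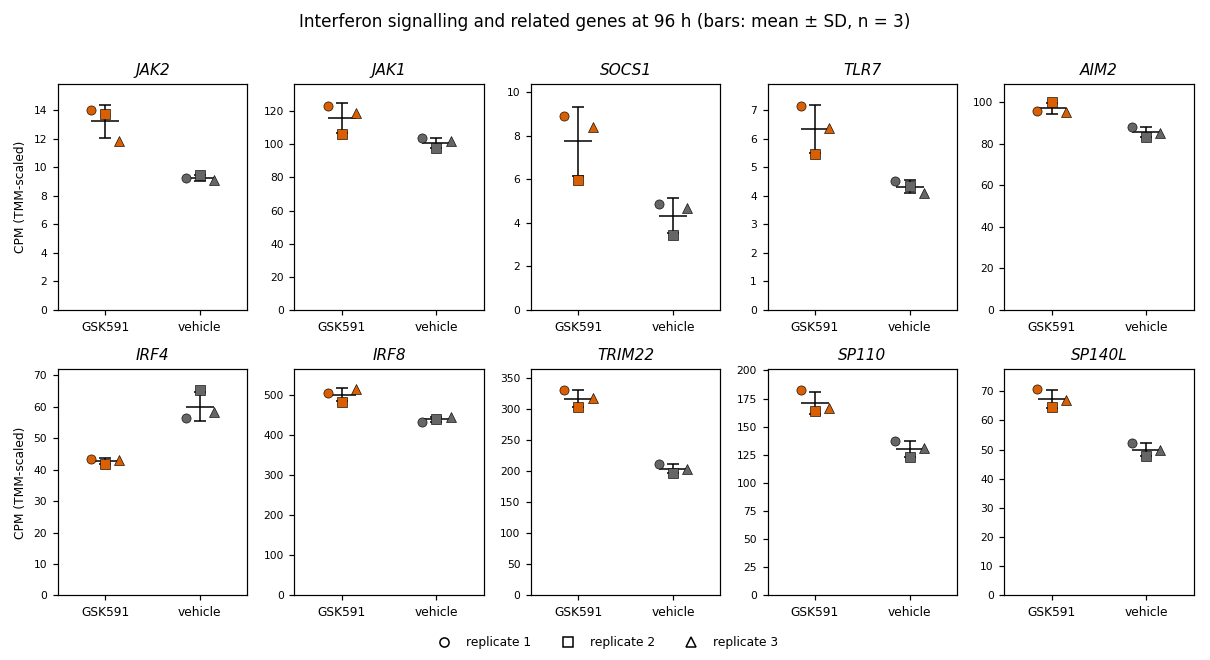
TMM-scaled CPM at 96 h of 10 genes of interferon signalling and related lists in each library (orange GSK591, grey vehicle; bars mean ± SD, n = 3). IRF4 is lower with GSK591, at a mean of 42.8 against 60.1 CPM, and the other 9 are higher. The genes drawn are a selection, and IKBKE, which was also called lower, is not among them.

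At 24 h the same lists held small changes, while 14.7% of all genes tested were called (7.44% higher and 7.29% lower). Of 11 receptors and transducers, IL28RA (IFNLR1), a subunit of the receptor for lambda interferons, was called (log2 fold change 0.08 ± 0.03, edgeR adjusted p = 0.0465). Of 7 negative regulators, the phosphatases PTPN2 (0.14 ± 0.04, edgeR adjusted p = 0.0111) and PTPN6 (0.13 ± 0.04, edgeR adjusted p = 0.0161) were higher. Of 14 sensing genes, UNC93B1, a chaperone of endosomal Toll-like receptors (0.15 ± 0.03, edgeR adjusted p = 0.00563), and AIM2 (0.11 ± 0.03, edgeR adjusted p = 0.0345) were higher, and IRF3 (-0.10 ± 0.03, edgeR adjusted p = 0.0219) was lower. IRF8 (0.07 ± 0.02, edgeR adjusted p = 0.0199), TRIM22 (0.09 ± 0.03, edgeR adjusted p = 0.0225) and SP110 (0.09 ± 0.03, edgeR adjusted p = 0.032) were higher as well. Of these 9 calls, UNC93B1 was the one kept whichever library was left out. Without GSK591 replicate 1 the adjusted p was 0.169 for IL28RA, 0.0522 for PTPN6, 0.156 for AIM2, 0.052 for IRF3, 0.0987 for IRF8, 0.168 for TRIM22 and 0.198 for SP110. Without GSK591 replicate 2 it was 0.0685 for PTPN6. Without GSK591 replicate 3 it was 0.179 for IL28RA, 0.0571 for PTPN2, 0.112 for AIM2, 0.121 for IRF3, 0.064 for IRF8 and 0.0855 for SP110. Losses also came without vehicle replicate 1 (IL28RA 0.163, PTPN6 0.0822, AIM2 0.0926, TRIM22 0.104), vehicle replicate 2 (IL28RA 0.181, AIM2 0.191, IRF3 0.0509, IRF8 0.0625, TRIM22 0.0558, SP110 0.137) and vehicle replicate 3 (IRF3 0.0777). All 9 were lost in the fit of all 12 libraries, with adjusted p from 0.228 for UNC93B1 to 0.617 for IRF3.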

How the data were processed

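The members and the pathway and marker lists were chosen with earlier results of these data known. Per the labels, poly(A)-selected RNA went into Illumina TruSeq RNA libraries. The authors deposited raw read counts per gene symbol, 1 table for each time, and per the submitters' processing notes used STAR, HTSeq and edgeR with hg19 (GRCh37). The sources used here do not state versions, annotation or the strand setting, so overlapping and antisense genes cannot be told apart. The authors' deposited tables of comparisons hold log2 fold changes, average log2 CPM and p-values with an FDR, per the file headers. They are quoted only where named.

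Counts were filtered with filterByExpr, TMM-scaled and tested with edgeR 4.0.16 (R 4.3.3) by two-sided quasi-likelihood F tests within each time, with Benjamini-Hochberg adjustment over 13173 genes at 24 h and 13514 at 96 h and a threshold of 0.05. The difference between times was fitted over all 12 libraries (13665 genes). CPM values are TMM-scaled over the 12 libraries, with SD over 3 libraries. Library totals were 48.5 to 64.4 M counts (M, mega) and 547.9 M, and below 1 CPM counting error limits the precision. The fits were tested on simulated data, in which all libraries had the same spread and no gene with very few reads was changed. That test therefore does not cover the libraries that stood apart at 96 h or the ISGs with very few reads. Alternatives were library size alone, DESeq2 1.42.0 with its size factors, no filter or a 5 CPM filter, the replicate number as a block, a thinned deep library, a fit of all 12 libraries, leaving out each replicate, and leaving out both 96 h libraries numbered 2, which in the difference between times was added after the data were seen. All expressed members are described, and of each pathway list the 3 genes with the smallest p at each time; those not called there are not named, and 1 that this rule selects is not reported here. Proteins of the IFITM genes are not shown here. Promoters are RefSeq windows on GRCh38.p14, another build than that of the counts.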

Additional observations from a re-analysis of the deposited data

Results flagged for a closer look

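For 8 of 32 ISGs tested the drug effect differed between the times by the test of the difference (96 h minus 24 h, edgeR's quasi-likelihood test over 12 libraries), while it did for 24.1% of all genes tested. The values were 0.47 for ISG20 (adjusted p 0.0373), 0.39 for STAT2 (0.0397), -0.18 for MX2 (0.0441), -0.28 for IFI16 (0.0112), -0.29 for BST2 (0.0227), -1.57 for PARP9 (0.038), -2.14 for EPSTI1 (0.0138) and -3.17 for XAF1 (0.0461). The log2 fold changes behind them were 0.42 at 96 h and -0.06 at 24 h for ISG20, 0.39 and -0.02 for STAT2, -0.31 and -0.15 for MX2, and -0.33 and -0.05 for BST2. They were -0.22 and 0.05 for IFI16 and -1.62 and 0.53 for EPSTI1. PARP9 had -0.83 at 96 h and was not tested at 24 h, and XAF1 had 0.67 at 24 h and was not tested at 96 h. EPSTI1, PARP9 and XAF1 lie below 1 CPM, with few reads in the GSK591 libraries of 96 h. The direction of their difference is not independent of the filter on low counts. IFI16 and EPSTI1 were called whichever library was left out. The other 6 were lost without 5 or more of the 12 libraries in turn. The adjusted p then reached 0.0968 for ISG20, 0.107 for STAT2, 0.108 for MX2, 0.0607 for BST2, 0.162 for PARP9 and 0.154 for XAF1. For PARP9 and XAF1 the highest of these came without GSK591 replicate 1 of 24 h, in which PARP9 had 20 reads and XAF1 45.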

How the results depend on the processing

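Over the log2 fold changes of the expressed ISGs, the ISGs below 1 CPM that were called, EPSTI1 at 24 h, IFITM3 at 96 h and the named pathway genes, 1224 of 1475 values under the alternatives kept their direction and side of the threshold, 163 lost a call, 42 gained one and 46 turned in sign. At 24 h, 1940 genes and 4 ISGs were called; leaving out 1 library gave 980 to 2208 genes and 2 to 6 ISGs, and the fit of all 12 libraries 29 genes and 0 ISGs (4 at an unadjusted p under 0.05; 2 called by DESeq2). Library size alone (1783 genes), DESeq2 (1426) and the 5 CPM filter (1726) each left 2 ISGs, of 26, 37 and 14 tested, and library size alone called 563 genes higher of 1783, against 980 higher of 1940. At 96 h, 5437 genes and 14 ISGs were called, 3438 to 7485 genes and 8 to 18 ISGs without 1 library, 8201 genes without both libraries numbered 2, and 4407 of 9809 genes and 8 of 15 ISGs with the 5 CPM filter. For the difference, 3298 genes and 8 ISGs were called, 1991 to 5712 and 2 to 13 without 1 library, 3111 of 9881 genes and 3 of 15 ISGs with the 5 CPM filter, and 6022 genes and 16 ISGs without both 96 h libraries numbered 2; library size alone called 1778 genes higher of 3252, against 1499 of 3298. The causes were not tested. Replicate numbers pair the libraries only by number. Correlations of deviations between like-numbered libraries were 0.02, 0.21 and 0.05 at 24 h and 0.42, 0.30 and 0.01 at 96 h. Between unlike-numbered libraries they ran from -0.12 to 0.07 at 24 h and from -0.43 to 0.26 at 96 h. Whether libraries of the same number share a source was not tested. The replicate block called 2811 genes and 5 ISGs at 24 h, 6293 and 14 at 96 h, and 4323 and 10 for the difference.

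Among these values the sign changes were in ones that were not called. Without 1 library at 24 h the log2 fold change ran from -0.31 to 0.26 for ISG15, -0.13 to 0.03 for ISG20, -0.25 to 0.67 for MX1, -0.01 to 0.03 for IRF1, -0.12 to 0.10 for IRF7, -0.07 to 0.03 for STAT2, -0.03 to 0.04 for SAMD9, -0.02 to 0.04 for IRF2 and -0.03 to 0.03 for IRF4. It ran from -0.20 to 0.07 for OAS3 and -0.0065 to 0.08 for IRF2 and -0.03 to 0.14 for IFITM3 at 96 h, and in the difference from -0.37 to 0.15 for IFIT2, -0.08 to 0.14 for OAS1, -0.17 to 0.11 for OAS3 and -0.05 to 0.05 for IRF9. With library size alone at 24 h, IRF1 was at -0.01, IRF7 at -0.0082, IRF2 at -0.006 and IRF4 at -0.02. With the 5 CPM filter IRF1 was at -0.0015 and IRF4 at -0.0055. IRF4 was at -4.7e-05 with no filter, -1.9e-05 with the replicate block and -7.0e-05 in the fit of all 12 libraries. In the difference OAS1 was at -0.02 and IRF9 at -0.0066 with no filter, and OAS3 at 0.01 and IRF9 at -0.04 without both libraries numbered 2, as was IFITM3 at -0.03 at 96 h. Depth limits the ISGs below 1 CPM.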

Other observations

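Levels of some ISGs in vehicle cells also differed between the times, which were deposited as separate tables and are not compared by a test here. IFIT2 averaged 3.39 ± 1.16 CPM in vehicle cells at 96 h and 0.815 ± 0.023 CPM in vehicle cells at 24 h. IFITM3 averaged 1.16 ± 0.0188 CPM at 96 h and 0.483 ± 0.117 CPM at 24 h, and STAT2 297 ± 41.8 CPM at 96 h and 207 ± 9.35 CPM at 24 h. OAS3 was at 33.7 ± 3.88 CPM at 96 h and 48.4 ± 1.02 CPM at 24 h (SD, n = 3 in each case). Other ISGs moved little: ISG20 averaged 2.55 ± 0.054 CPM at 96 h and 2.54 ± 0.154 CPM at 24 h. OAS2 averaged 85.8 ± 1.86 and 87.6 ± 3.72 CPM, and IRF1 8 ± 0.158 and 8.23 ± 0.237 CPM, in the same order.

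At 96 h vehicle replicate 1, the deep library, was the highest of the 6 libraries for 13 of the 37 ISGs, 8 of them below 1 CPM, while it was the highest for 587 of the 13514 genes tested. GSK591 replicate 2 of 96 h was the highest for 1 of the 37 ISGs, and for 2275 of the 13514 genes. The 37 include ISGs that were not tested at 96 h, so these shares are of unlike sets of genes. The deep library also has less counting noise than the others, which was not allowed for.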
